A study of Arabidopsis thaliana with 38 samples.

Results

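Endosperm of Col-0 (WT) and *vel3-1* seeds was compared by RNA-seq after 24 h of imbibition in water (24HAI). The members are the nuclear genes whose mean over the 6 libraries reached 1 TPM (read number scaled by gene length and by library). There are 15765 of them among 26715 nuclear genes listed. Of the rest, 4212 were listed at 0 in all 6 libraries and 6738 had a lower mean. The series holds 38 samples, of which 18 are RNA-seq libraries, and 6 of these are used here, 3 biological replicates of each genotype. *vel3-1* carries a T-DNA in *VEL3* in the Col-0 background, and Col-0 carries no insertion. Seeds of both genotypes were set at 16 °C and came from pooled plants. Imbibed seeds were squeezed between glass slides, and the endosperm-enriched tissue was cleaned in sucrose. The samples were therefore enriched for endosperm and not dissected cell by cell.

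The endosperm of a mature Arabidopsis seed is a single living cell layer around the embryo. It holds the embryo back in a dormant seed, and it softens its walls, uses up its reserves and finally dies when the seed germinates. VEL3 belongs to the VERNALIZATION5/VIN3-LIKE proteins, which act beside polycomb repressive complex 2 and histone deacetylases in gene silencing. It works early, in the central cell and the young endosperm. The comparison asks which genes differ in the imbibed endosperm of a mutant whose seeds are less dormant.

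TPM summed to between 979200 and 982000 per library, and the number of reads behind single genes was not used here. Errors therefore rest on the spread between libraries, which limma combines with that of other genes at a similar level. *VEL3* itself (AT2G18870) was listed at 0 in all 3 Col-0 libraries and at 0, 0.0770 and 0.160 TPM in *vel3-1*, and *VEL2* was near 0 throughout, so neither gives a check of the genotypes at this stage. Among the markers of imbibed endosperm *EPR1* (AT2G27380) was abundant, at 16076 to 20082 TPM in Col-0 libraries and 17819 to 20368 TPM in *vel3-1*. The others were far lower, in Col-0 from *NCED6* at 0.696 to 1.54 TPM to *EXPA2* at 67.6 to 423 TPM. The 8 endosperm markers summed to 16623 to 20339 TPM in Col-0 libraries and 18244 to 20964 TPM in *vel3-1*, nearly all of it *EPR1*. Of the 8, 1 was called (*MAN7*, higher). *CYP707A2* was lower but under the 2-fold mark (log2 difference -0.79, adjusted p = 0.00334 from limma). The 11 embryo markers summed to 44.7 to 75.1 TPM and 41.4 to 48.7 TPM, 4 of them (*WOX5*, *SHR*, *STM* and *CUC2*) were under 1 TPM in every library, and none of the 4 that reached the minimum was called. *PLT1*, below the minimum, had 0.843, 1.14 and 0.961 TPM in Col-0 against 0.311, 0.515 and 0.219 TPM in *vel3-1*, and *ATML1* had 22.2 to 25.1 TPM against 17.9 to 20.3 TPM, so *vel3-1* lay below Col-0 in both. The 5 seed coat markers summed to 9.94 to 13.5 TPM and 12.8 to 14.7 TPM. Of these only *BAN* and *TT10* reached the minimum, and neither was called, while *TT12*, *AHA10* and *TT16* were under 1 TPM in every library. *TT10* lay above Col-0 in every *vel3-1* library (0.929 to 1.77 TPM against 2.04 to 2.66 TPM, adjusted p = 0.0857 from limma) and *AHA10* below it (0.782 to 0.961 TPM against 0.312 to 0.364 TPM). The part of embryo and seed coat in the results was not tested. In these bulk samples fewer cells of a type and less RNA per cell cannot be told apart.

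One Col-0 library stood apart. Over the members, log2(TPM + 1) correlated at 0.992 to 0.993 between *vel3-1* libraries and at 0.993 between Col-0 replicates 1 and 3, but at 0.978 and 0.987 between Col-0 replicate 2 and replicates 1 and 3. For 153 of the 271 genes higher in *vel3-1* it was the Col-0 library with the highest value, against 72 for replicate 1 and 46 for replicate 3. Counts without it are given beside those groups of genes in which they differ by over 1.5 times.

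A gene was called higher or lower when the limma test on log2(TPM + 1) gave an adjusted p under 0.05 and the difference was at least 2-fold. In *vel3-1*, 271 members (1.72% of those tested) were higher and 63 (0.400%) were lower, so 81.1% of the 334 called genes were higher. Without Col-0 replicate 2 the counts were 474 (3.02%) and 67 (0.427%), and 264 of the 271 and 51 of the 63 were called again. Without *vel3-1* replicate 1 they were 179 and 50. An adjusted p under 0.05 alone, with no fold minimum, held for 739 higher (4.69%) and 416 lower genes (2.64%). With 3 libraries against 3, an exact two-sided permutation test of a single gene cannot give a p below 0.1. All 3 *vel3-1* libraries lay above all 3 Col-0 libraries for 1985 members (12.6%), among them all 271 higher genes, and below them for 2231 (14.2%), among them all 63 lower genes. The median log2 difference over all members was -0.00.

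The higher and the lower genes differed in their level in Col-0. The higher genes had a median of 2.49 TPM in Col-0 and the lower genes 22.1 TPM, beside 13.8 TPM over all members. Part of this contrast is built in, since the genes were filtered and called on these same Col-0 values. Of the higher genes, 79 had a Col-0 mean under 1 TPM and were members only because *vel3-1* was high, and 9 were listed at 0 in all 3 Col-0 libraries. The 79 could be called only upward. *CEP1*, *NIMIN1*, *SWEET11*, *VIM2*, *ZIP2* and *GATA13*, named below, are among them. The plot of level against difference shows the higher and the lower genes. Since log2(TPM + 1) was used, differences of genes at a few TPM are understated.

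**Figure D1:**
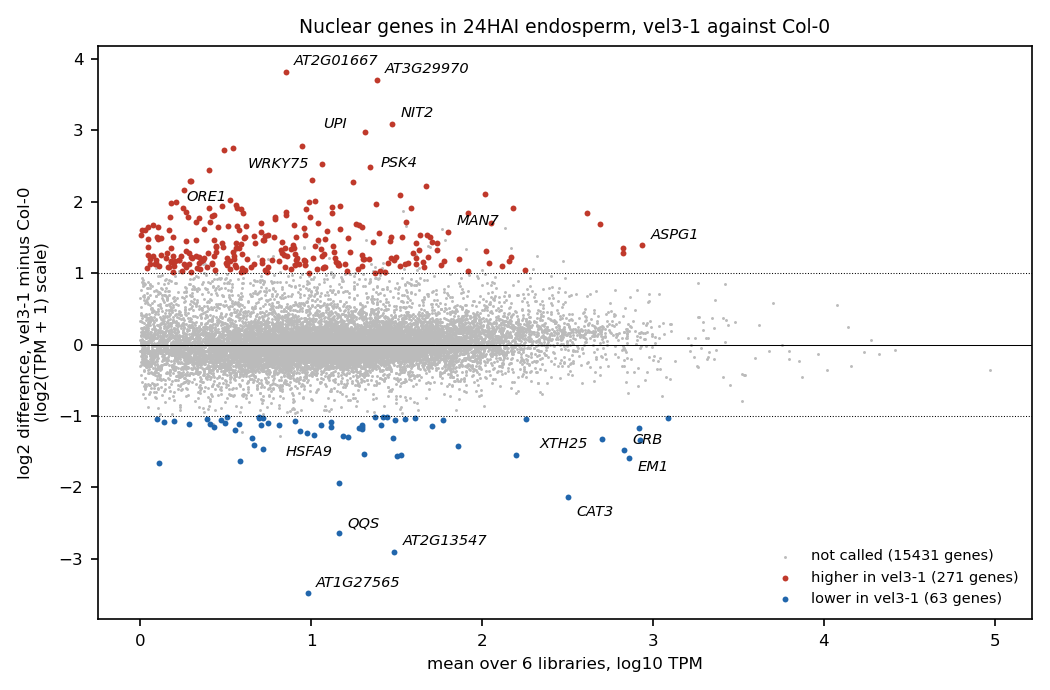
Each point is a nuclear gene, with the log10 of its mean TPM over 6 libraries on the x axis and the log2 difference of *vel3-1* minus Col-0 on the y axis. The 271 genes called higher are red and lie mostly at low levels, and the 63 called lower are blue and include abundant seed genes such as *EM1* and *CRB*.

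The largest differences upward included an unknown protein, a B12D protein, a nitrilase and small secreted proteins. AT2G01667, which encodes an unknown protein, was listed at 0 in all Col-0 libraries and at 21.6, 13 and 7.89 TPM in *vel3-1*. AT3G29970, annotated as a B12D protein, had 1.69, 3.63 and 1.98 TPM in Col-0 against 24.9, 46.3 and 66.8 TPM in *vel3-1* (log2 difference 3.71, standard error 0.34, adjusted p = 0.000782 from limma). *NIT2* (AT3G44300) encodes a nitrilase, an enzyme that turns nitriles into acids, and had 6.24, 4.88 and 5.08 TPM in Col-0 against 66.1, 44.2 and 52.2 TPM in *vel3-1* (log2 difference 3.09, standard error 0.15, adjusted p = 6.88e-05 from limma). In each of these genes every *vel3-1* library was far above the highest Col-0 library. *UPI* (AT5G43580), a serine protease inhibitor of the potato inhibitor I type, had 3.43, 3.97 and 4.1 TPM in Col-0 against 44.8, 34.3 and 32.5 TPM in *vel3-1* (log2 difference 2.97, standard error 0.14, adjusted p = 6.06e-05 from limma). *PSK4* (AT3G49780), the precursor of the sulfated growth peptide phytosulfokine, had 5.98, 6.15 and 5.96 TPM in Col-0 against 43.4, 37.4 and 34.5 TPM in *vel3-1* (log2 difference 2.48, standard error 0.11, adjusted p = 6.06e-05 from limma). For *UPI* and *PSK4* the libraries of a genotype lay close together, Col-0 replicate 2 included.

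Senescence and cell death genes were followed because a dying endosperm uses the NAC and WRKY factors and the hydrolases of leaf senescence. Of 19 tested genes in a list of them, 5 were higher (*WRKY75*, *ORE1*, *NAC087*, *RNS3* and *CEP1*) and none was lower, beside 1.72% and 0.400% of all members. *CEP1* reached the minimum of 1 TPM only through *vel3-1*, so it could be called only upward. The list was put together with the changes in these seeds already known, so it does not bear on its own direction. Its median log2 difference was 0.57, against -0.00 over all members, and 8 of 20 were called higher without Col-0 replicate 2.

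*ORE1* (AT5G39610), a NAC factor that drives leaf senescence and cell death, had 0.565, 1.37 and 1.26 TPM in Col-0 against 8.32, 6.34 and 5.3 TPM in *vel3-1* (log2 difference 1.89, standard error 0.21, adjusted p = 0.00173 from limma). *WRKY75* (AT5G13080), a WRKY factor of leaf senescence, had 2.11, 4.31 and 2.04 TPM in Col-0 against 21.7, 17.9 and 21.4 TPM in *vel3-1* (log2 difference 2.53, standard error 0.21, adjusted p = 0.00058 from limma). *NAC087* (AT5G18270), a NAC factor known from root cap cell death, had 1.14, 0.948 and 1.13 TPM in Col-0 against 5.57, 4.56 and 3.22 TPM in *vel3-1* (log2 difference 1.37, standard error 0.18, adjusted p = 0.00339 from limma). All 3 *vel3-1* libraries of each factor stood above all Col-0 libraries. *NAC046*, a relative of *NAC087* and *ORE1*, missed the minimum of 1 TPM. It was listed at 0.523, 0.739 and 0.448 TPM in Col-0 against 1.45, 1.31 and 1.47 TPM in *vel3-1*.

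Among enzymes of cell death, the ribonuclease *RNS3* had 1.17, 0.653 and 1.27 TPM in Col-0 against 4.28, 3.7 and 3.07 TPM in *vel3-1* (log2 difference 1.21, standard error 0.18, adjusted p = 0.00533 from limma). The papain-like protease *CEP1*, which acts in dying cells of the tapetum, had 1.12, 0.999 and 0.792 TPM in Col-0 against 4.3, 3.47 and 2.48 TPM in *vel3-1* (log2 difference 1.15, standard error 0.18, adjusted p = 0.00813 from limma). The S1-type nuclease *ENDO2*, which was in no list, had 0.939, 1.8 and 1.4 TPM in Col-0 against 6.77, 5.83 and 5.83 TPM in *vel3-1* (log2 difference 1.60, standard error 0.16, adjusted p = 0.00119 from limma). For these 3 genes every *vel3-1* library lay above every Col-0 library. *DELTA-VPE*, a vacuolar processing enzyme of the seed coat, had 12.3 to 42.3 TPM in Col-0 against 53 to 75.3 TPM in *vel3-1* (log2 difference 1.54, adjusted p = 0.0443 from limma). Its Col-0 values were uneven, 42.3 TPM in replicate 2 beside 12.3 and 16.8 TPM, and with single libraries left out its adjusted p from limma was 9.32e-05 to 0.174.

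Other members of the list did not pass. *RNS1* differed by 0.98 on the log2 scale (adjusted p = 0.0115 from limma) and missed the 2-fold mark. The nuclease gene *BFN1* had 2.15, 2.21 and 1.21 TPM in Col-0 against 3.29, 3.78 and 2.93 TPM in *vel3-1* (adjusted p = 0.0828 from limma), with groups that did not overlap. *WRKY6*, the most abundant member, had 211 to 279.7 TPM in Col-0 against 197 to 252 TPM in *vel3-1* (log2 difference -0.15) and *WRKY53* 40.5 to 44.9 TPM in Col-0 against 33.4 to 64.9 TPM in *vel3-1* (log2 difference 0.03). The carboxypeptidase gene *SCPL48* had 4.51, 42.3 and 9.48 TPM in Col-0 against 69.3, 42.1 and 39.4 TPM in *vel3-1*, so Col-0 replicate 2 lay among the *vel3-1* libraries (log2 difference 2.71, adjusted p = 0.000328 from limma, without it). The senescence marker *SAG12* was listed at 0 in all 6 libraries.

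NAC and WRKY factors were also examined as classes. Of 35 tested NAC factors 4 were higher and 1 was lower, beside 1.72% and 0.400% of all members. Of 34 WRKY factors 4 were higher and none was lower. The higher factors include *ORE1*, *NAC087* and *WRKY75*, which were already counted in the senescence list. *NAC083*, which lies next to the sugar transporter gene *SAG29* on chromosome 5, had 0.792 to 1.72 TPM in Col-0 against 2.52 to 5.06 TPM in *vel3-1* (log2 difference 1.08, adjusted p = 0.0283 from limma), and *SAG29*, named as senescence-associated, had 15.1 to 21.4 TPM in Col-0 against 26.5 to 45.3 TPM in *vel3-1* (log2 difference 1.01, adjusted p = 0.0209 from limma). *WRKY8*, a factor of salt and virus responses, had 4.76 to 7.04 TPM in Col-0 against 15.5 to 17.6 TPM in *vel3-1* (log2 difference 1.34, adjusted p = 0.00125 from limma). *WRKY51* and *WRKY26* were low in Col-0 (0.181 to 1.23 TPM) and had log2 differences of 1.17 and 1.07. *MYB56*, *MYB3R2* and *MYB112* were the 3 higher MYB factors of 47 tested, and *MYB56* had 4.22, 4.95 and 2.62 TPM in Col-0 against 16.7, 14.7 and 15.8 TPM in *vel3-1*. The lower NAC factor was AT3G12910, with 11 to 13.7 TPM in Col-0 against 3.54 to 6.57 TPM in *vel3-1* (log2 difference -1.21).

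Of 35 tested peroxidases, which use hydrogen peroxide, 3 were higher and 1 was lower, beside 1.72% and 0.400% of all members, and without Col-0 replicate 2 the counts were 6 and 1 of 34. Of 3 catalases 1 was lower. AT1G71695, annotated in the peroxidase superfamily, had 14.9, 16.3 and 15.3 TPM in Col-0 against 70.8, 60.6 and 52.7 TPM in *vel3-1* (log2 difference 1.91, standard error 0.12, adjusted p = 0.000208 from limma). *CAT3* (AT1G20620), which encodes a catalase that breaks down hydrogen peroxide, had 512, 484 and 573 TPM in Col-0 against 109, 117 and 127 TPM in *vel3-1* (log2 difference -2.14, standard error 0.10, adjusted p = 6.06e-05 from limma). *PRXR1* (AT4G21960), the lower peroxidase, had 54.4, 47.7 and 48.5 TPM in Col-0 against 15.7, 16.6 and 17.2 TPM in *vel3-1* (log2 difference -1.55, standard error 0.09, adjusted p = 0.000167 from limma). The libraries of each genotype lay close together in all 3 genes, and *CAT3* was the most strongly lowered of the genes above 100 TPM in Col-0. The glutathione transferase genes *GSTU1* and *GSTF8* were higher, with log2 differences of 1.24 and 1.09, and *GSTU13* was lower at -1.01.

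Genes that answer to low oxygen varied widely among the Col-0 libraries. Of 15 tested genes of this response 2 were called higher and none was lower, beside 1.72% and 0.400% of all members. Their median log2 difference was 0.96, and 13 of 15 had all *vel3-1* libraries above all Col-0 libraries, beside 12.6% of all members. *PDC1* (AT4G33070), pyruvate decarboxylase of ethanol fermentation, had 31.4, 130.3 and 48.6 TPM in Col-0 against 312, 159 and 227 TPM in *vel3-1* (log2 difference 1.92, standard error 0.46, adjusted p = 0.0419 from limma). *HRE2* (AT2G47520), an ERF factor that is stabilised when oxygen is low, had 9.68, 16.2 and 11 TPM in Col-0 against 43.2, 30.7 and 39.4 TPM in *vel3-1* (log2 difference 1.56, standard error 0.19, adjusted p = 0.00257 from limma). *ADH1*, alcohol dehydrogenase and the most abundant member, had 698, 596 and 495 TPM in Col-0 against 889, 922 and 1214 TPM in *vel3-1* (log2 difference 0.76, adjusted p = 0.0278 from limma). Col-0 replicate 2 was the highest Col-0 library for *PDC1* and *HRE2* but not for *ADH1*, and with single libraries left out the adjusted p of *PDC1* from limma was 0.000275 to 0.164.

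The oxygen-sensing cysteine oxidase genes *PCO1* and *PCO2* had log2 differences of 0.89 and 0.95, and the haemoglobin gene *HB1* one of 0.96. *HRA1*, *LBD41* and *SAD6* did not pass in the main test, and in each the Col-0 libraries were spread widely. *HRA1* had 11.5, 60.2 and 37.8 TPM in Col-0 against 102, 72.8 and 80.7 TPM in *vel3-1*. *LBD41* had 82.7, 309.5 and 205 TPM in Col-0 against 429, 401 and 353 TPM in *vel3-1*. *SAD6* had 11.3, 65.6 and 24.1 TPM in Col-0 against 87.2, 74.1 and 87.7 TPM in *vel3-1*. In these genes Col-0 replicate 1 was low and replicate 2 was close to *vel3-1*. Without Col-0 replicate 2, 10 of the 15 were called higher. *PDC2* and *HRE1* had overlapping groups, at 81.8 to 102 TPM in Col-0 against 86.8 to 89.9 TPM in *vel3-1* and 8.37 to 9.14 TPM in Col-0 against 7.66 to 9.46 TPM in *vel3-1*.

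Enzymes that weaken the endosperm wall before germination were examined through the mannanases and expansins. *MAN7* (AT5G66460), an endo-beta-mannanase that cuts the mannans of the endosperm wall, had 15.7, 58.7 and 28.4 TPM in Col-0 against 114, 87 and 76.6 TPM in *vel3-1* (log2 difference 1.58, standard error 0.39, adjusted p = 0.0464 from limma). It overlaps a gene on the same strand in the annotation, so reads at its end can be shared. The other mannanase genes *MAN2*, *MAN5* and *MAN6* were at 1.17 to 7.72 TPM and had log2 differences of -0.02, -0.13 and -0.27, with overlapping groups. Of 14 expansins, proteins that loosen walls, 2 were higher, beside 1.72% of all members. *EXPA10* had 7.69, 31.1 and 15.1 TPM in Col-0 against 66.5, 52.1 and 43.2 TPM in *vel3-1* (log2 difference 1.72, standard error 0.40, adjusted p = 0.0385 from limma). *EXPA4* had 2.59, 4.25 and 3.3 TPM in Col-0 against 9.95, 9.98 and 9.66 TPM in *vel3-1* (log2 difference 1.33, standard error 0.15, adjusted p = 0.00185 from limma). Col-0 replicate 2 was the highest Col-0 library for *MAN7* and both expansins, and without it 6 of 14 expansins were called higher. With single libraries left out the adjusted p from limma was 0.000407 to 0.166 for *MAN7* and 0.000429 to 0.147 for *EXPA10*. *EXPA2*, an expansin marker of germinating endosperm, had 67.6, 423 and 153 TPM in Col-0 against 412, 268 and 216 TPM in *vel3-1*, with the groups overlapping through Col-0 replicate 2.

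Of 15 xyloglucan endotransglucosylase genes 1 was higher and 1 was lower, beside 1.72% and 0.400% of all members. Without Col-0 replicate 2 the counts were 3 and 1 of 13. *XTH24* had 8.11, 18.8 and 10.3 TPM in Col-0 against 32.2, 30.8 and 37.6 TPM in *vel3-1* (log2 difference 1.44, standard error 0.25, adjusted p = 0.0122 from limma). *XTH25* had 850.2, 565 and 759.8 TPM in Col-0 against 267, 307 and 281 TPM in *vel3-1* (log2 difference -1.33, standard error 0.15, adjusted p = 0.00188 from limma). The lower gene was the more abundant one, and the groups of neither gene overlapped. *GASA6* (AT1G74670), a small cysteine-rich protein of the gibberellin-regulated GASA family known to promote germination, had 88.8, 363 and 143 TPM in Col-0 against 816, 637 and 418 TPM in *vel3-1* (log2 difference 1.85, standard error 0.46, adjusted p = 0.0474 from limma). A second GASA gene, AT5G59845, had 1.06 to 3.14 TPM in Col-0 against 5.82 to 9.68 TPM in *vel3-1*, and these were the 2 called of 7 tested. The aspartic protease gene *ASPG1* (AT3G18490), known from breaking dormancy, had 348, 653 and 453 TPM in Col-0 against 1444, 1171 and 1109.7 TPM in *vel3-1* (log2 difference 1.39, standard error 0.22, adjusted p = 0.00695 from limma). *ASPG1* had the highest mean of all genes called higher. With single libraries left out the adjusted p of *GASA6* from limma was 0.000391 to 0.176.

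Lipid-transfer proteins, small secreted proteins that carry lipids to the cell surface, were the annotation class with the largest called share among those with at least 12 tested genes. Of 27 tested 8 were higher and none was lower, beside 1.72% and 0.400% of all members. Their median log2 difference was 0.59. Without Col-0 replicate 2, 12 were called, where 3.02% of all members were higher. At least *EARLI1* and AT2G18370 among the 8 had Col-0 means under 1 TPM. Both reached the minimum only through *vel3-1*, so they could be called only upward. AT4G22470 had 15.8, 14.3 and 17.3 TPM in Col-0 against 97.4, 69.6 and 66.9 TPM in *vel3-1* (log2 difference 2.22, standard error 0.15, adjusted p = 0.000245 from limma). *LTP2* (AT2G38530) had 197, 275 and 221 TPM in Col-0 against 853, 698 and 677 TPM in *vel3-1* (log2 difference 1.68, standard error 0.14, adjusted p = 0.000597 from limma). The adjacent genes *AZI1* and *EARLI1* on chromosome 4 were at 0 to 0.326 TPM in Col-0 and reached 1.46 to 2.55 TPM and 0.680 to 3.65 TPM in *vel3-1*, and as close copies they may share reads. *KCS5* and *KCS6*, which elongate the fatty acids of cuticular wax, were also higher, at log2 differences of 1.39 and 1.13.

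Cysteine-rich peptides that were almost silent in Col-0 made up several of the largest differences. Of 155 tested genes picked by words for defensin-like and related annotation 7 were higher and 2 were lower (4.52% and 1.29%, beside 1.72% and 0.400% of all members). The 2 lower genes are not such peptides. AT1G15125 is annotated as an S-adenosyl-L-methionine-dependent methyltransferase, and *MSRB6* is named for methionine sulfoxide reductase. The class thus took in other genes, and its shares are not those of peptides alone. Of the 7, 5 had a Col-0 mean under 1 TPM and reached the minimum only through *vel3-1*, so they had to differ. *LCR62*, *LCR48*, *LCR84* and *LCR39* are low-molecular-weight cysteine-rich genes of the defensin family. *LCR84* was listed at 0 in Col-0 and at 4.43, 3.76 and 3.45 TPM in *vel3-1*. *LCR62* had 0.241, 0.238 and 0 TPM in Col-0 against 7.88, 7.25 and 5.34 TPM in *vel3-1*. *LCR48* had 0, 0 and 0.259 TPM in Col-0 against 6.06, 5.18 and 3.67 TPM in *vel3-1*. *LCR39* was the one with a clear level in Col-0 and had 2.93, 4.58 and 2.43 TPM in Col-0 against 14.7, 19.9 and 13.5 TPM in *vel3-1* (log2 difference 2.0, standard error 0.21, adjusted p = 0.00121 from limma). The plant defensin gene *PDF1.4* was far more abundant, with 50.2, 67.9 and 63.5 TPM in Col-0 against 149, 161 and 141 TPM in *vel3-1* (log2 difference 1.31, standard error 0.12, adjusted p = 0.000804 from limma). AT5G14995, annotated with the ECA1 gametogenesis-related family, had 0.186, 0 and 0 TPM in Col-0 against 7.21, 6.34 and 4.7 TPM in *vel3-1*. The trypsin inhibitor gene *TI1*, of the same kind of small secreted protein, had 371, 356 and 397 TPM in Col-0 against 999.7, 899 and 979.6 TPM in *vel3-1* (log2 difference 1.35, standard error 0.09, adjusted p = 0.000245 from limma). The groups did not overlap in any of these peptide genes, which held for all 271 higher genes and so is not particular to them.

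Some genes tied to auxin, growth peptides and the acidity of the wall were called, and they are gathered here with their calls known. Of 46 tested auxin response proteins 2 were higher and 1 was lower, beside 1.72% and 0.400% of all members. Without Col-0 replicate 2 the counts were 5 and 1 of 45. The GH3 proteins link auxin to amino acids and so lower free auxin, and 2 of 10 tested were higher, beside 1.72% of all members. *WES1* had 7.46, 18.1 and 11.7 TPM in Col-0 against 66.4, 53.1 and 42.4 TPM in *vel3-1* (log2 difference 2.09, standard error 0.28, adjusted p = 0.00354 from limma). *DFL1* had 5.36, 9.38 and 6.55 TPM in Col-0 against 22.5, 19 and 17.8 TPM in *vel3-1* (log2 difference 1.38, standard error 0.18, adjusted p = 0.00334 from limma). *NIT1*, the close copy of *NIT2*, had 77.5, 94.2 and 78.7 TPM in Col-0 against 137, 122 and 124 TPM in *vel3-1* (log2 difference 0.61, adjusted p = 0.00968 from limma), and reads may be divided between the copies. *PSK1*, the second phytosulfokine gene called among 4 tested, had 76.5, 109 and 79.5 TPM in Col-0 against 208, 194 and 213 TPM in *vel3-1* (log2 difference 1.22, standard error 0.13, adjusted p = 0.00172 from limma). The proton pump gene *HA2*, whose product acidifies the wall, had 80.3, 164 and 110.5 TPM in Col-0 against 272, 217 and 222 TPM in *vel3-1* (log2 difference 1.05, standard error 0.23, adjusted p = 0.0285 from limma), and *HA3* had 2.19 to 2.74 TPM in Col-0 against 5.83 to 8.43 TPM in *vel3-1* (log2 difference 1.13). With single libraries left out the adjusted p of *HA2* from limma was 0.000406 to 0.116. *HA1*, the most abundant pump gene, was not called. *IAA2*, an Aux/IAA repressor that auxin induces, was lower, with 8.47 to 10.7 TPM in Col-0 against 3.35 to 4.0 TPM in *vel3-1* (log2 difference -1.13, adjusted p = 0.00188 from limma). *RHD6*, the bHLH factor of root hair fate, was also lower, at 4.07 to 4.11 TPM in Col-0 and 1.13 to 1.45 TPM in *vel3-1* (log2 difference -1.16).

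Of 352 tested transporters 9 were higher and none was lower, 2.56% beside the background of 1.72%. Without Col-0 replicate 2, 15 of 350 were higher and 2 were lower, where 3.02% and 0.427% of all members were. They included the amino acid exporters *UMAMIT25*, *UMAMIT12* and *UMAMIT20* and the sugar exporters *SWEET11* and *SWEET7*. *UMAMIT20* had 17, 31.4 and 18.4 TPM in Col-0 against 70.3, 57.1 and 52.1 TPM in *vel3-1* (log2 difference 1.43, standard error 0.22, adjusted p = 0.00653 from limma), and *SWEET11* had 0.782, 0.65 and 0.944 TPM in Col-0 against 3.71, 3.72 and 2.24 TPM in *vel3-1* (log2 difference 1.22, standard error 0.19, adjusted p = 0.00664 from limma). *GDU4* and *GDU5*, glutamine dumpers that affect amino acid export, were higher as well. *GDU4* had 1.55, 1.74 and 1.65 TPM in Col-0 against 6.1, 6.23 and 7.28 TPM in *vel3-1*, while *GDU5* was listed at 0 in Col-0.

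Of 8 tested genes of the iron deficiency response 4 were higher (*BHLH039*, *OPT3*, *FRO3* and *NRAMP3*) and none was lower, beside 1.72% and 0.400% of all members. *BHLH039* reached the minimum of 1 TPM only through *vel3-1*, so it could be called only upward. *BHLH039*, a bHLH factor induced when iron is short, had 0.047, 0.186 and 0.234 TPM in Col-0 against 4.14, 2.42 and 3.69 TPM in *vel3-1* (log2 difference 1.92, standard error 0.19, adjusted p = 0.00112 from limma). *OPT3*, an iron transporter of the phloem, had 1.99, 3.26 and 1.71 TPM in Col-0 against 9.04, 7.33 and 8.72 TPM in *vel3-1* (log2 difference 1.52, standard error 0.18, adjusted p = 0.00241 from limma). The relatives of *BHLH039*, *BHLH038*, *BHLH100* and *BHLH101*, had means under the minimum of 1 TPM, with *vel3-1* at 0.212 to 2.67 TPM and Col-0 at 0 to 0.296 TPM. The iron uptake genes *IRT1* and *FRO2* did not go the same way. *IRT1* was near 0, and *FRO2* had 2.2 to 4.11 TPM in Col-0 against 1.23 to 1.75 TPM in *vel3-1* (log2 difference -0.68, adjusted p = 0.0789 from limma). *ZIP2*, a zinc and manganese transporter, had 0.752, 0.704 and 0.474 TPM in Col-0 against 4.43, 5.34 and 4.47 TPM in *vel3-1* (log2 difference 1.81, standard error 0.15, adjusted p = 0.000454 from limma). *COPT2* and the nitrate transport gene *WR3* had log2 differences of 1.42 and 1.19.

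Of 44 tested histone genes 6 were higher and none was lower, beside 1.72% and 0.400% of all members, and without Col-0 replicate 2 the counts were 10 and 1. In the comparison of all libraries 14 had an adjusted p under 0.05 in that direction without the fold minimum, with 2 in the other. AT1G09200, a histone H3 gene, had 4.85, 13.8 and 7.37 TPM in Col-0 against 25.8, 24.3 and 22.6 TPM in *vel3-1* (log2 difference 1.49, standard error 0.28, adjusted p = 0.0177 from limma). *HTA6* and *HIS4*, for H2A and H4, had log2 differences of 1.29 and 1.2. Histone genes are near-identical copies, so reads between them can be misplaced. Of 13 replication genes 2 were higher. *TSO2*, the small subunit of ribonucleotide reductase, had 3.91, 8.43 and 5.11 TPM in Col-0 against 22, 17.7 and 17.1 TPM in *vel3-1* (log2 difference 1.59, standard error 0.22, adjusted p = 0.00464 from limma). *ETG1*, a partner of the replicative helicase, had 0.986, 2.48 and 2.34 TPM in Col-0 against 6.18, 4.62 and 4.82 TPM in *vel3-1* (log2 difference 1.12, standard error 0.23, adjusted p = 0.0225 from limma). Both overlap a gene on the same strand, and with single libraries left out the adjusted p from limma was 0.00462 to 0.0996 for *ETG1*, 0.00021 to 0.179 for *HTA6* and 0.000106 to 0.0819 for AT1G09200.

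The helicase genes *MCM2* to *MCM6* and *PRL*, the MCM7 gene, had log2 differences of 0.87, 0.93, 0.87, 0.87, 0.78 and 0.92, with adjusted p from limma between 0.0267 and 0.095. In all of them Col-0 replicate 2 was the highest Col-0 library, and 7 of 13 replication genes were called without it. *ICK1*, an inhibitor of cyclin-dependent kinases, was higher too, with 3.79 to 8.06 TPM in Col-0 against 10.8 to 14.1 TPM in *vel3-1* (log2 difference 1.11, adjusted p = 0.0212 from limma).

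The VIM proteins bind methylated DNA and keep CG methylation in place. *VIM5* (AT1G57800) had 7.19, 6.15 and 6.93 TPM in Col-0 against 24.3, 21.3 and 22.8 TPM in *vel3-1* (log2 difference 1.62, standard error 0.10, adjusted p = 0.000237 from limma), and *VIM2* had 0.512, 0.278 and 0.434 TPM in Col-0 against 2.79, 2.69 and 2.32 TPM in *vel3-1* (log2 difference 1.36, standard error 0.15, adjusted p = 0.00177 from limma). *VIM1* and *VIM3* had log2 differences of 0.68 and 0.42 and did not pass. *VIM4*, a near copy of *VIM2*, lay just under the minimum at 0.338, 0.250 and 0.365 TPM in Col-0 against 1.87, 1.75 and 1.42 TPM in *vel3-1*. All 5 genes had every *vel3-1* library above every Col-0 library. In contrast, none of 16 tested polycomb and VEL family genes was called, with a median log2 difference of -0.01, and the most abundant of them, the histone deacetylase gene *HD2C*, differed by -0.04 on the log2 scale. *FLC* had 40.6 to 41.5 TPM in Col-0 against 40.5 to 47.7 TPM in *vel3-1*, and none of 6 tested genes of the *FLC* clade was called.

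**Figure D2:**
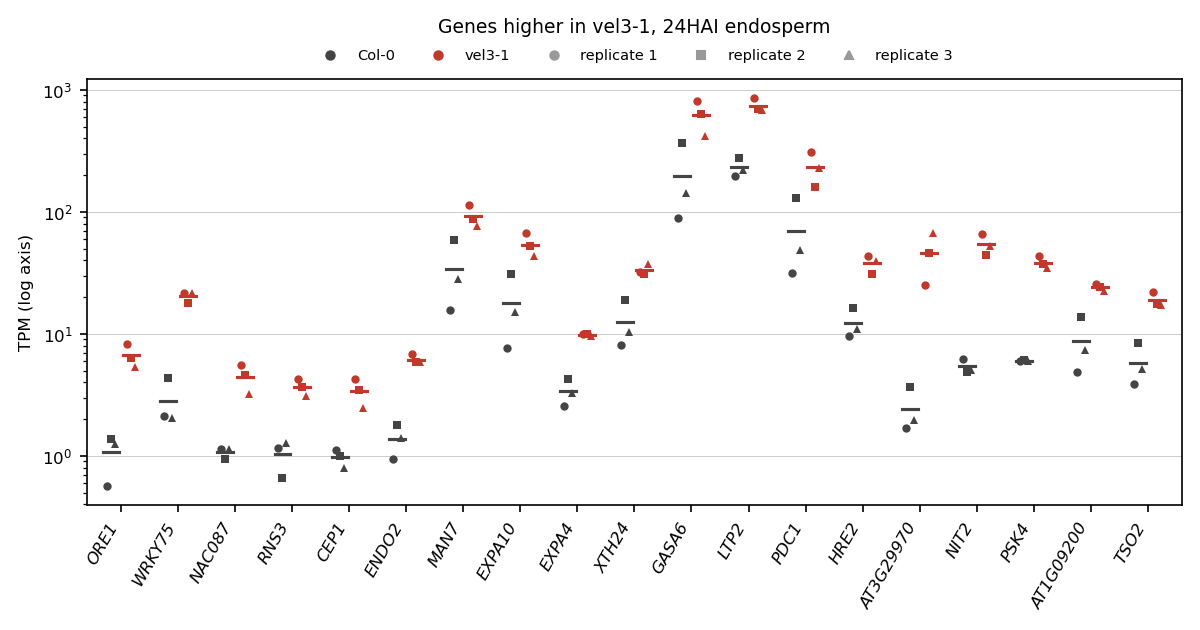
TPM on a log axis for 19 genes called higher, with 3 Col-0 libraries in grey and 3 *vel3-1* libraries in red, symbols for replicates and a bar at each mean. The groups do not overlap in any of these genes, and Col-0 replicate 2 (square) is nearest to *vel3-1* in *PDC1*, *GASA6*, *MAN7* and *EXPA10*.

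The genes lower in *vel3-1* included abundant products of late seed maturation. Of 12 tested genes of a maturation list 3 were lower (*EM1*, *HSFA9* and *ATECP31*) and none was higher, beside 0.400% of members, and the same number was lower without Col-0 replicate 2. The wider annotation class of late embryogenesis abundant or seed maturation proteins was mixed. Of 49 tested 3 were lower and 2 higher, with a median log2 difference of 0.08. An adjusted p under 0.05 alone held for 7 higher and 5 lower genes. All *vel3-1* libraries lay above Col-0 for 19 and below for 12 of the 49, beside 12.6% and 14.2% of all members. Without Col-0 replicate 2, 3 of 49 were called lower and 1 higher. *EM1* (AT3G51810), a hydrophilic protein that protects drying seed tissue, had 1286, 772 and 1233 TPM in Col-0 against 315, 382 and 371 TPM in *vel3-1* (log2 difference -1.59, standard error 0.19, adjusted p = 0.00241 from limma). *CRB* (AT1G03880), a cruciferin storage globulin, had 1310.1, 698 and 1013 TPM in Col-0 against 296, 372 and 387 TPM in *vel3-1* (log2 difference -1.48, standard error 0.22, adjusted p = 0.0054 from limma). *ATECP31* (AT3G22500) and its neighbour AT3G22490, both annotated as seed maturation proteins, had 1369 to 1855 TPM in Col-0 against 747 to 854 TPM in *vel3-1* (log2 difference -1.03, adjusted p = 0.00337 from limma) and 186 to 289 TPM in Col-0 against 108 to 122 TPM in *vel3-1* (log2 difference -1.04, adjusted p = 0.00598 from limma). For all 4 genes Col-0 replicate 2 was the lowest Col-0 library and still above every *vel3-1* library.

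The other tested genes of the maturation list were not called. The regulators *ABI3* and *FUS3* had log2 differences of -0.17 and -0.10 with overlapping groups. *EM6*, the second Em gene, had 5133, 3322 and 4126 TPM in Col-0 against 1778, 2728 and 2839.8 TPM in *vel3-1* (log2 difference -0.78, adjusted p = 0.0788 from limma). *M17* and the dehydrin gene *RAB18* (AT5G66400) had log2 differences of -0.14 and -0.13. Of 15 storage protein and oil body genes only *CRB* was called, and the 2 most abundant, *CRA1* and *CRC*, had 23351 to 29148 TPM in Col-0 against 24607 to 25544 TPM in *vel3-1* and 13235 to 17590.5 TPM in Col-0 against 11976 to 13239 TPM in *vel3-1*. *SESA3*, an albumin gene, was the one member with all *vel3-1* libraries above Col-0 (log2 difference 0.55, adjusted p = 0.128 from limma).

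*HSFA9* (AT5G54070), the heat shock factor of developing seeds, is known to switch on small heat shock genes, and it was lower together with some of them. *HSFA9* had 26.5, 17.6 and 27.4 TPM in Col-0 against 9.2, 8.76 and 8.9 TPM in *vel3-1* (log2 difference -1.29, standard error 0.16, adjusted p = 0.00267 from limma). *HSP17.6A* (AT5G12030) had 1565, 818 and 1262 TPM in Col-0 against 369, 481 and 566 TPM in *vel3-1* (log2 difference -1.33, standard error 0.24, adjusted p = 0.0144 from limma). *HSP17.4* (AT3G46230) had 1591, 702 and 1190.3 TPM in Col-0 against 406, 499 and 572 TPM in *vel3-1* (log2 difference -1.17, standard error 0.27, adjusted p = 0.0372 from limma). Col-0 replicate 2 was the lowest Col-0 library of both chaperone genes and lay above every *vel3-1* library. The mitochondrial *HSP23.6-MITO* and the HSP20-like gene AT1G52560 had log2 differences of -1.03 and -1.14. These are 5 of 118 tested heat shock proteins and factors (4.24%), beside 0.400% of all members. Of the 118, 1 (AT1G15757, of the DnaJ type) was higher, beside 1.72% of all members, and the median of the class was -0.04. Without Col-0 replicate 2, 5 of 117 were higher and 5 lower. With single libraries left out the adjusted p of *HSP17.4* from limma was 0.000351 to 0.15. *MBF1C*, a coactivator of heat responses, went the other way, with 15.2 to 19.5 TPM in Col-0 against 35.2 to 49 TPM in *vel3-1* (log2 difference 1.22, adjusted p = 0.00199 from limma).

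Upstream windows of some lowered genes that hold motifs of maturation and heat shock genes are shown. The RY element CATGCA is bound by ABI3 and its relatives, and the G-box CACGTG by bZIP factors of abscisic acid. The heat shock element GAANNTTC marks heat shock genes. Each window is the 250 bases before the RefSeq gene start in build TAIR10.1, written on the strand of the gene. Matches were counted on both strands, overlapping ones included, and capitals mark them. Of all 15765 members 6.95% held an RY element in this window, against 13 of 63 lower genes (20.6%) and 33 of 271 higher genes (12.2%). A heat shock element was held by 9.41% of members, 11 lower genes (17.5%) and 21 higher genes (7.75%). A G-box was held by 8.09% of members, 5 lower genes (7.94%) and 19 higher genes (7.01%). In the list of storage protein and oil body genes, of which 14 of 15 were not called, 14 of 15 windows held an RY element. The exception was the window of *CRB*, the called gene. The windows of the lowered genes *EM1*, *CRB*, AT3G22490, *HSP17.6A* and *HSP23.6-MITO* held no RY element, G-box or heat shock element. Those of *HSFA9* and *ATECP31* held an RY element, that of AT2G18340 a G-box and that of AT1G52560 a heat shock element. *HSP17.4* held all of these motifs. All of these are counts of letters in a window and were not tested.

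The windows are written 5′ to 3′ with their coordinates and strand, and all come from the RefSeq genome.
HSFA9 (chr5:21943733-21943982, plus strand): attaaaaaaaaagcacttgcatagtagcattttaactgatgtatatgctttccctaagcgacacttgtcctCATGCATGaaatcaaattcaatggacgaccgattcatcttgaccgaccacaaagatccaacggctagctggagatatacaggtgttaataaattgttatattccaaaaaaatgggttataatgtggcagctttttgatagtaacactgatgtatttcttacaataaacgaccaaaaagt
HSP17.4 (chr3:16984868-16985117, minus strand): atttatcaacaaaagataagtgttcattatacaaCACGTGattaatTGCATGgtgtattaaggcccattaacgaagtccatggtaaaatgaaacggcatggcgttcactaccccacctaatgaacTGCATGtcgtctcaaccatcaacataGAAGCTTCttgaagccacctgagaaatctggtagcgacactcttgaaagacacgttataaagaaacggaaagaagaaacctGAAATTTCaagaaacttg
GA20OX2 (chr5:21056882-21057131, minus strand): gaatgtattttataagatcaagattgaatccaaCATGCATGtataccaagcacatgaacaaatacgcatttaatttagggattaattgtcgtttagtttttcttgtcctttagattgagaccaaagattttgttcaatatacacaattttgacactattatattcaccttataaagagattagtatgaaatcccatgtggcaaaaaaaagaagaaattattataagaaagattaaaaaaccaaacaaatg
WRKY75 (chr5:4151202-4151451, minus strand): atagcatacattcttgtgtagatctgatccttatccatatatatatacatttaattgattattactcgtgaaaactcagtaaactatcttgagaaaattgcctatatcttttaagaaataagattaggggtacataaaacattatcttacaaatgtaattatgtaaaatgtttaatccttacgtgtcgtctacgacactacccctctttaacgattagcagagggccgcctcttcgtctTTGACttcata

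The 4 windows differ in what they hold. *HSP17.4* held 2 RY elements, 1 G-box and 2 heat shock elements, the nearest heat shock element starting 18 bases before the gene. *HSFA9* and *GA20OX2* each held 2 overlapping RY matches and also 1 W-box core, which is not in capitals. The window of the higher gene *WRKY75* is shown beside them for the W-box core TTGAC, the site of WRKY factors, which starts 11 bases before the gene. A W-box core was in 45.0% of all windows, 45.8% of higher genes and 50.8% of lower genes.

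**Figure D3:**
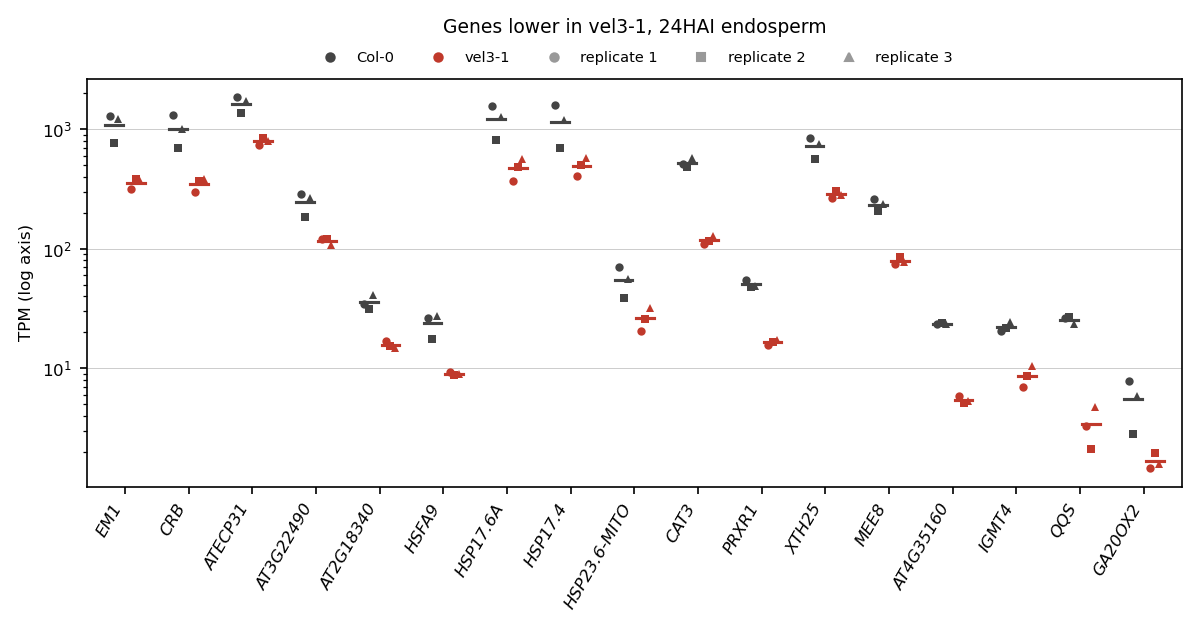
TPM on a log axis for 17 genes called lower, with 3 Col-0 libraries in grey and 3 *vel3-1* libraries in red, symbols for replicates and a bar at each mean. The groups do not overlap in any of them, and Col-0 replicate 2 (square) is the lowest Col-0 library for *EM1*, *CRB*, *HSFA9* and the small heat shock genes.

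Outside maturation, the lower genes held a few strong changes with little spread. AT1G27565, an unknown protein, had 20.2, 18.2 and 16.6 TPM in Col-0 against 1.54, 0.215 and 0.67 TPM in *vel3-1* (log2 difference -3.48, standard error 0.24, adjusted p = 0.000245 from limma). AT2G13547, also unknown, had 52.3, 54.7 and 56.8 TPM in Col-0 against 4.61, 8.9 and 6.44 TPM in *vel3-1* (log2 difference -2.90, standard error 0.18, adjusted p = 0.000237 from limma). *QQS* (AT3G30720), an orphan gene that affects starch content, had 26.4, 26.7 and 23.5 TPM in Col-0 against 3.29, 2.1 and 4.77 TPM in *vel3-1* (log2 difference -2.64, standard error 0.20, adjusted p = 0.000377 from limma). Every *vel3-1* library of these 3 genes was far below the lowest Col-0 library. *MEE8*, the most abundant bHLH factor tested, had 262, 206 and 236 TPM in Col-0 against 74.4, 86.2 and 77.9 TPM in *vel3-1* (log2 difference -1.55, standard error 0.11, adjusted p = 0.000245 from limma). AT1G68240, a second bHLH gene, had 44 to 53 TPM in Col-0 against 12.9 to 19.6 TPM in *vel3-1* (log2 difference -1.56, adjusted p = 0.000893 from limma). The GATA factor gene *GATA19* had 6.02 to 10.3 TPM in Col-0 against 1.69 to 2.99 TPM in *vel3-1* (log2 difference -1.47, adjusted p = 0.00489 from limma), while *GATA13* was higher, with 0 to 0.354 TPM in Col-0 against 2.41 to 3.69 TPM in *vel3-1*.

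Enzymes of glucosinolates and other defence compounds were among them. Of 4 tested indole glucosinolate methyltransferase genes 3 were lower, beside 0.400% of all members. *IGMT4* had 20.4, 21.9 and 24.1 TPM in Col-0 against 6.98, 8.56 and 10.4 TPM in *vel3-1* (log2 difference -1.27, standard error 0.14, adjusted p = 0.00176 from limma). *IGMT2* and *IGMT3* had log2 differences of -1.24 and -1.40. *IGMT1* had 1.66 to 2.29 TPM in Col-0 against 0.659 to 1.54 TPM in *vel3-1* and was not called (log2 difference -0.52). The 4 genes are neighbouring copies on chromosome 1, so a shared change and shared reads cannot be told apart. *AOP3*, which modifies aliphatic glucosinolates, had 5.66 to 9.19 TPM in Col-0 against 1.89 to 2.49 TPM in *vel3-1* (log2 difference -1.30, adjusted p = 0.00489 from limma). *NSP5* and *FMO GS-OX4*, which direct glucosinolate breakdown and oxidise their side chains, were higher, at log2 differences of 1.26 and 1.50. Their adjusted p from limma was 0.000551 to 0.0729 and 0.000664 to 0.168 with single libraries left out, and *FMO GS-OX4* kept its call in 5 of 14 alternatives. AT4G35160, another O-methyltransferase gene, had 23.2, 23.8 and 23.4 TPM in Col-0 against 5.8, 5.08 and 5.34 TPM in *vel3-1* (log2 difference -1.94, standard error 0.09, adjusted p = 6.88e-05 from limma).

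Few hormone genes were called. Of 26 tested genes of abscisic acid and dormancy 1 was higher (3.85%) and none was lower, beside 1.72% and 0.400% of all members. *NCED2* (AT4G18350), for a cleavage enzyme in abscisic acid synthesis, had 1.84, 1.34 and 1.38 TPM in Col-0 against 7.99, 4.47 and 3.82 TPM in *vel3-1* (log2 difference 1.30, standard error 0.23, adjusted p = 0.0131 from limma), beside *NCED6* and *NCED9* at 0.696 to 1.54 TPM in Col-0 against 0.854 to 1.38 TPM in *vel3-1* and 1.57 to 2.44 TPM in Col-0 against 3.73 to 5.13 TPM in *vel3-1*. *CYP707A2*, the enzyme that removes abscisic acid on imbibition, had 23.6, 23.9 and 23.3 TPM in Col-0 against 12.1, 15.1 and 12.5 TPM in *vel3-1* (log2 difference -0.79, adjusted p = 0.00334 from limma), a difference under the 2-fold mark. *DOG1*, the dormancy gene, had 15, 8.32 and 10.5 TPM in Col-0 against 13, 14 and 11.6 TPM in *vel3-1*, with overlapping groups. *ABI5* and the phosphatase gene *AHG1* had log2 differences of -0.19 and 0.48. *OST1*, a kinase of the abscisic acid pathway that was not in the list, was higher, with 16.2, 24.2 and 15.2 TPM in Col-0 against 49, 35.6 and 48.6 TPM in *vel3-1* (log2 difference 1.23, standard error 0.19, adjusted p = 0.00664 from limma).

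Of 16 tested gibberellin genes 1 was lower (6.25%) and none was higher, beside 0.400% and 1.72% of all members. *GA20OX2* (AT5G51810), for a late step of gibberellin synthesis, had 7.75, 2.78 and 5.87 TPM in Col-0 against 1.45, 1.95 and 1.59 TPM in *vel3-1* (log2 difference -1.2, standard error 0.28, adjusted p = 0.0377 from limma). With single libraries left out its adjusted p from limma was 0.000409 to 0.159. *GA20OX3*, the more abundant oxidase gene of this step, had 71.2 to 92.9 TPM in Col-0 against 87.5 to 92 TPM in *vel3-1* (log2 difference 0.11). The repressor gene *RGL2* had 47.8, 94.4 and 66.4 TPM in Col-0 against 106, 92.3 and 81.3 TPM in *vel3-1* (adjusted p = 0.267 from limma), with Col-0 replicate 2 inside the *vel3-1* range. None of 14 tested jasmonate genes was called, and the most abundant, *LOX4*, had 140.5 to 161 TPM in Col-0 against 156 to 230.3 TPM in *vel3-1*. Of 6 tested salicylic acid and defence genes *NIMIN1* was higher (1.08 on the log2 scale, with an adjusted p of 0.00917 to 0.125 from limma when single libraries were left out), while *PR1* was under 0.4 TPM and *PR2* and *PR5* were listed at 0 in every library. None of 67 immune receptor genes of the NLR type and none of 141 receptor-like kinases was called. Without Col-0 replicate 2, 1 jasmonate gene, 2 genes of the salicylic acid list and 1 receptor-like kinase were higher.

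Oil mobilization genes, which feed on the reserves of the endosperm, did not pass. None of 11 tested was called, with a median log2 difference of 0.25. *PCK1*, of gluconeogenesis, had 1434, 2342 and 1680.1 TPM in Col-0 against 3071, 2454 and 2776 TPM in *vel3-1* (log2 difference 0.63, adjusted p = 0.0903 from limma), and *ICL*, isocitrate lyase, had 11523 to 14873 TPM in Col-0 against 14615 to 15452 TPM in *vel3-1* (log2 difference 0.25). *BBM*, an AP2 factor of embryos, was lower, with 4.0, 3.63 and 3.39 TPM in Col-0 against 1.13, 1.4 and 1.28 TPM in *vel3-1* (log2 difference -1.04, standard error 0.13, adjusted p = 0.00316 from limma), and of the embryo markers related to it *PLT1* also lay below Col-0 in every *vel3-1* library, while the groups of *PLT2* overlapped (0.280 to 1.04 TPM against 0.202 to 0.568 TPM). *AMP1*, a peptidase gene whose loss enlarges meristems, was lower as well, with 18.7, 17 and 19.5 TPM in Col-0 against 8.12, 8.02 and 6.9 TPM in *vel3-1* (log2 difference -1.16, standard error 0.11, adjusted p = 0.000796 from limma).

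**Figure D4:**
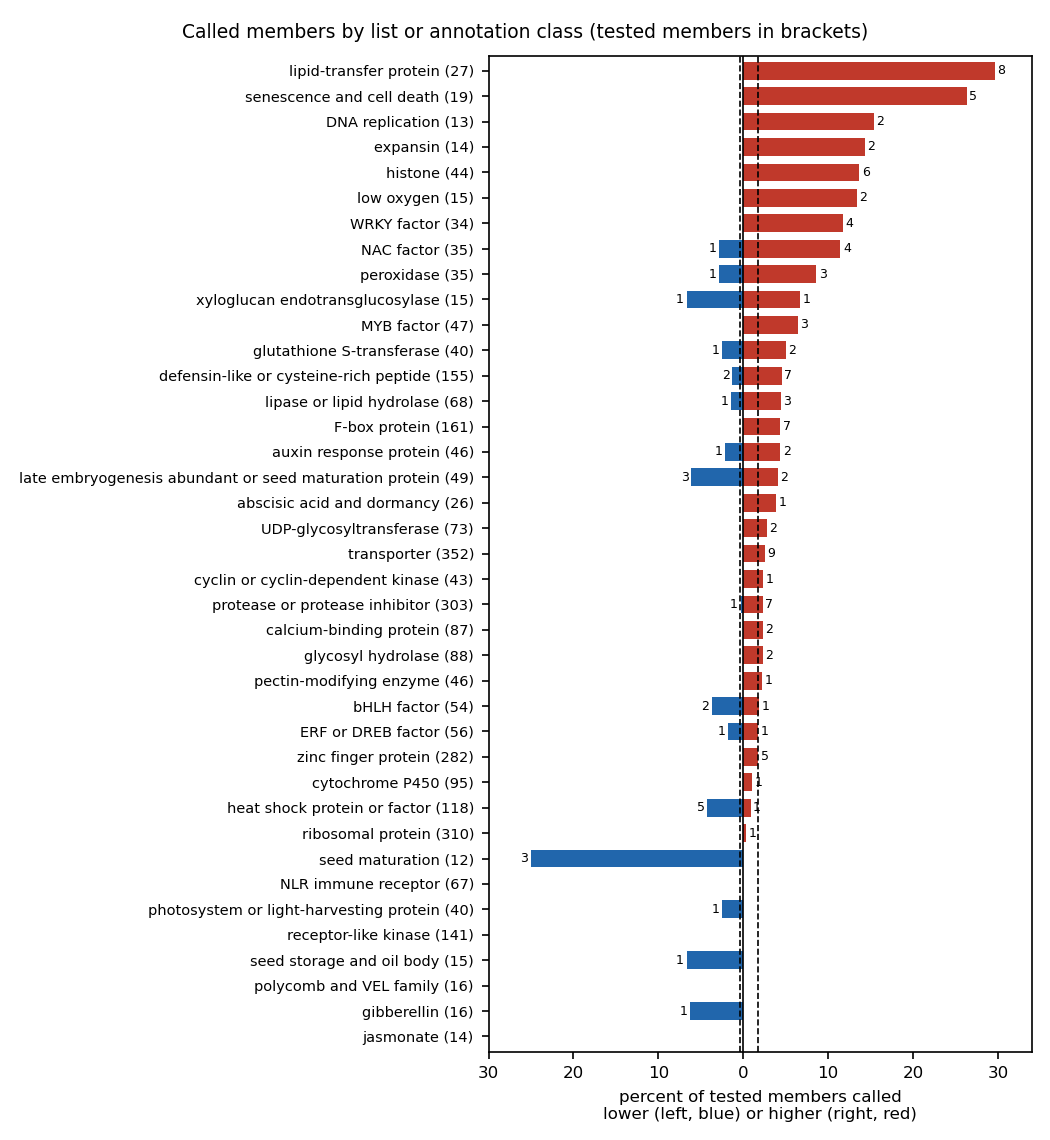
Share of tested members called higher (red, right) or lower (blue, left) for lists and annotation classes with at least 12 tested genes, with the number called at each bar. Dashed lines mark the shares over all members, 1.72% and 0.400%, and lipid-transfer proteins (8 of 27) and senescence and cell death genes (5 of 19) reach furthest to the right.

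**Figure D5:**
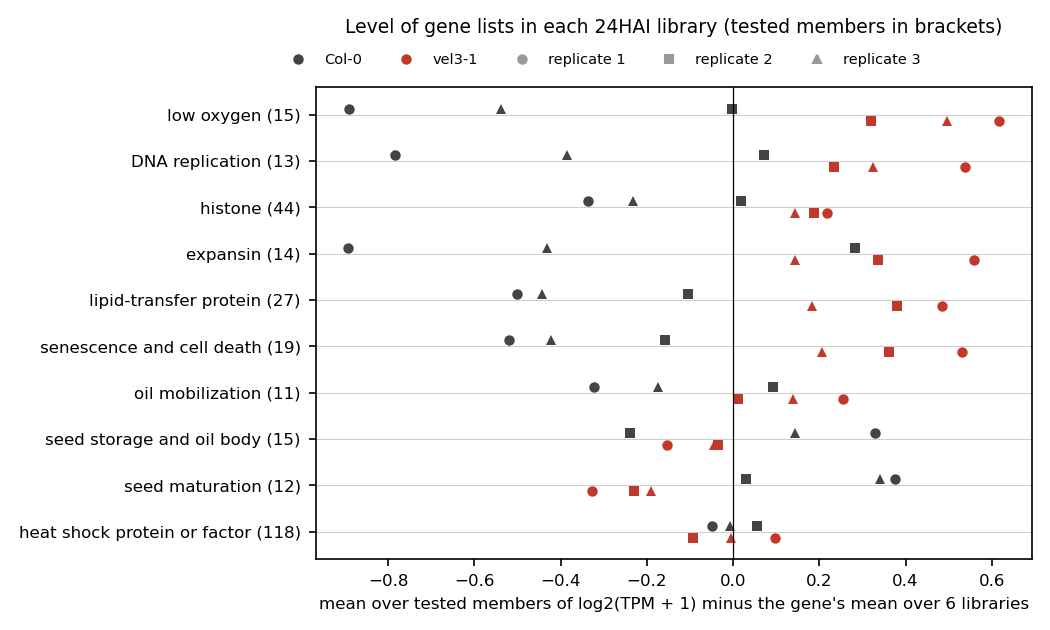
Mean level of 10 lists or classes in each of the 6 libraries, as log2(TPM + 1) minus the mean of each gene over all libraries, with Col-0 in grey and *vel3-1* in red. For low oxygen and DNA replication genes Col-0 replicate 2 (square) lies between the other Col-0 libraries and *vel3-1*. The 2 genotypes overlap for heat shock proteins, expansins, oil mobilization genes and storage protein and oil body genes.

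Called genes lay on all 5 chromosomes. Between 1.91% and 2.28% of the tested genes of each of the 5 chromosomes were called. Within 1 Mb on either side of *VEL3* on chromosome 2, 7 of 301 tested genes were called (2.33%), and within 0.5 Mb 5 of 141 (3.55%), beside 2.12% over all members. Neighbours in the order of tested genes were called together in 22 runs that held 46 genes. In 19 of these runs all genes went in the same direction. They included *IGMT2*, *IGMT3* and *IGMT4*, *AZI1* and *EARLI1*, *UPI* and AT5G43570, and the unknown proteins AT4G18680 and AT4G18690, which were lower with 84.8 to 123 TPM in Col-0 against 36.1 to 43.1 TPM in *vel3-1* and 39 to 47.3 TPM in Col-0 against 15 to 18.9 TPM in *vel3-1*. Copies in tandem are among them, between which reads can be misplaced.

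Few of the calls were shared with globular-stage seeds, which hold other tissues too. There 415 of 26426 tested nuclear genes were higher (1.57%) and 97 lower (0.367%). Of the 271 genes higher at 24HAI, 10 were also higher in globular seeds, which is 3.69% of the 24HAI list and 2.41% of the globular list. Of the 63 lower genes 3 were lower in both, 4.76% and 3.09% of the lists. In the opposite direction, 6 of the 271 were called lower in globular seeds and 3 of the 63 were called higher. Whether the effect of the genotype differs between stages was not tested. Globular Col-0 had *VEL3* at 1.34, 1.99 and 2.23 TPM, against 9.79, 8.30 and 13 TPM where the label was *vel3*, so directions there hold for the labels. One of those libraries had a median of 13.4 TPM over nuclear genes, beside 4.88 to 6.06 TPM in the other 5, and the median member was higher there by 0.22 on the log2 scale.

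*VIM5* was among the genes higher at both stages, with 7.42, 9.43 and 9.41 TPM in globular Col-0 against 38.6, 41.4 and 39.1 TPM under the label *vel3*. *GATA13* had 7.99, 10.1 and 5.70 TPM and 27.5, 37 and 26 TPM. *ENDO2* had 6.30, 7.35 and 4.91 TPM and 15.8, 16.4 and 21.2 TPM. *QQS* was lower at both stages, with 15.2, 15.5 and 14 TPM in globular Col-0 against 1.67, 1.31 and 9.81 TPM in the labelled mutant. *NF-YC11*, a subunit of the NF-Y factor, had 74.7, 85.2 and 80.8 TPM in Col-0 against 36.9, 38.4 and 39 TPM in *vel3-1* at 24HAI (log2 difference -1.05, standard error 0.08, adjusted p = 0.000405 from limma) and was lower in globular seeds as well, with 124.3, 129.4 and 123.7 TPM and 57.8, 77.8 and 44.2 TPM. None of these genes had overlapping groups at either stage.

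The member nearest above the minimum of 1 TPM, AT4G39600, had a mean of 1.00016 TPM over the 6 libraries, and the gene nearest below it, AT3G02900, one of 0.999607 TPM. In both the values of the 2 genotypes overlapped.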

How the data were processed

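The deposited table held TPM per gene for 3 Col-0 and 3 *vel3* libraries of 24HAI endosperm. The tools named in the submitters' processing notes were cutadapt 1.9.1, STAR 2.5, featureCounts and edgeR, and how the authors made the deposited TPM is not given in the sources used here. Genes whose mean reached 1 TPM, organellar genes included, were fitted with limma 3.58.1 in R 4.3.3 on log2(TPM + 1) with a mean-variance trend, and p-values were adjusted by the Benjamini-Hochberg method over all genes tested. Only nuclear genes are reported. The libraries are biological replicates by the labels, and precision rests on their spread together with the trend over all tested genes. Alternatives changed the pseudocount (0.1), the filter (none, or a mean of 5 TPM), the scaling, the trend, the fold minimum and the libraries used. The members and lists were chosen with earlier results of these data known. Named genes were the 20 largest differences in each direction, *VEL3*, *VEL2*, *ORE1*, *WRKY75*, *NAC046*, and from each list or class up to 5 called members, the most abundant one and, in lists given by gene, any member. Other named genes, such as *OST1*, *ENDO2*, *KCS5* and *MBF1C*, were chosen after their values were seen. Promoter windows were read from the RefSeq genome TAIR10.1.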

Additional observations from a re-analysis of the deposited data

Results flagged for a closer look

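For 8 genes called at 24HAI and called in the opposite direction in globular seeds, every globular library labelled *vel3* lay on the other side of globular Col-0, and the difference between the stages was not tested. Higher at 24HAI and lower in globular seeds were AT1G15757 (globular log2 difference -3.85), *HIS4* (-1.15), AT2G43660 (-1.21), AT3G16895 (-2.15) and AT5G38170 (-1.42). Lower at 24HAI and higher in globular seeds were *MPC* (2.13), AT4G10490 (2.02) and AT5G03090 (1.93). AT1G71250, higher at 24HAI, was also called lower in globular seeds (-2.25), with groups that overlapped there. *MPC* had 46.4, 92.2 and 35.7 TPM in globular Col-0 against 235.4, 450.3 and 125.8 TPM under the label *vel3*. AT3G16895 had 161.4, 177.4 and 159.6 TPM and 31.8, 65.3 and 23.3 TPM. One library labelled *vel3* had a raised median of 13.4 TPM, and its part in these values was not tested.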

How the results depend on the processing

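Dropping the fold minimum gave 739 higher and 416 lower genes, a mean of at least 5 TPM gave 134 and 45, and a pseudocount of 0.1 TPM gave 347 and 97, where the main counts were 271 and 63. Leaving out 1 library at a time gave 179 to 474 higher and 46 to 67 lower genes, the highest without Col-0 replicate 2 and 179 without *vel3-1* replicate 1. No filter on low values gave 256 and 58, median-ratio scaling 282 and 64, quantile normalization 273 and 64, nuclear genes alone 276 and 63, and limma without the trend 255 and 62. With the replicate block there were 243 higher and 60 lower genes. The numbers did not pair the libraries, since same-numbered libraries correlated at -0.41, -0.00 and 0.20 in their deviations and not every library correlated best with its own number. Of 110 named genes that were called, 71 kept the call under every alternative that tested them. Signs changed for genes that were not called. With single libraries left out the log2 difference ran from -0.067 to 0.069 for *HRE1*, -0.072 to 0.043 for *MAN2*, -0.20 to 0.089 for *NCED6*, -0.11 to 0.052 for *PDC2*, -0.28 to 0.019 for *RAB18* and -0.25 to 0.22 for *WRKY53*, which was at -0.016 with quantile normalization. The causes were not tested. Without the globular library of raised median labelled *vel3*, an alternative chosen after seeing the data, the median member was at 0.13 in globular seeds. Read numbers per gene were not used here, so changes in genes near 1 TPM rest on the spread between libraries and the trend over all tested genes.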
